A study of Mus musculus with 2 samples.

Results

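The Hox genes of the mouse encode transcription factors with a homeodomain, a DNA-binding fold, and lie in the clusters HoxA, HoxB, HoxC and HoxD. The 39 genes described here are the protein-coding genes of the deposited gene tables whose identifiers carry the symbol Hoxa, Hoxb, Hoxc or Hoxd and a number in the GENCODE annotation. They are 39 of 43346 Ensembl genes in the tables and 39 of 21474 protein-coding genes. HoxA holds 11 of them, HoxB 10, HoxC 9 and HoxD 9. The number in a symbol is the paralog group, which runs from 1 at the 3′ end of a cluster to 13 at its 5′ end.

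The study measured the RNA content of the liver of B6NCrl mouse embryos at embryonic day 16.5 by sequencing of total RNA. It has 1 group of 2 biological replicates, each a pool of livers of both sexes from embryos labelled healthy, with no treatment or altered gene named. The replicate 2 pool came from 41 embryos, no number is given for replicate 1, and both carry the same donor identifier. RNA was extracted with the mirVana kit, molecules above 200 nt were kept, and 10 ng entered each library, made with the SMARTer ultra-low kit, together with spike-in RNA. Tissue was sequenced in bulk, so hepatocytes, blood-forming cells, vessels, connective tissue and any tissue cut out with it share a library. In such bulk RNA, fewer cells of a type and less RNA per cell cannot be told apart. The labelled tissue carried its markers, with Afp, the fetal serum protein of hepatocytes, at 13667 and 13629 TPM and Klf1, a regulator of red cell genes, at 346 and 356 TPM in replicates 1 and 2. The libraries held 44477766 and 48820712 expected counts in replicates 1 and 2.

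Hox proteins give cells their position along the head-to-tail axis of the embryo. Genes at the 3′ end of a cluster are switched on earlier and nearer the head than those at the 5′ end, an order called collinearity. Hox proteins bind DNA together with the TALE proteins of the PBX and MEIS families, Trithorax complexes keep Hox genes active once they are on, and Polycomb complexes keep them off elsewhere. In the blood system Hox genes, those of HoxA above all, are known for their activity in stem and progenitor cells and for falling silent as blood cells mature, and the fetal liver is where much of the embryo's blood forms.

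Hox RNA was scarce in the E16.5 liver and was read from the 3′ and middle parts of HoxA and HoxB for the most part. None of the 39 genes reached 1 TPM (transcripts in 1000000, a level per transcript length relative to all transcripts of a library) in either library, against 52.2% of protein-coding genes at 1 TPM or more in both. The highest value of any Hox gene in any library was 0.78 TPM, for Hoxb2. Summed over the 39 genes, the level was 2.96 TPM in replicate 1 and 3.98 TPM in replicate 2, a mean of 3.47 ± 0.721 TPM (SD, n = 2). The mean sum was 5.35 TPM with the authors' posterior mean TPM and 6.65 TPM when TPM was rescaled over protein-coding nuclear genes other than globins, under which Hoxb2 alone reached 1 TPM in both libraries. The median Hox gene stood at 0.03 TPM in each library, while the median protein-coding gene stood at 1.41 and 1.57 TPM in replicates 1 and 2. Of protein-coding genes, 26.8% had a mean level below the Hox median. The TPM values were deposited with 2 decimals, so levels under about 0.05 TPM are coarse.

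All 39 genes together took 209.19 expected counts (reads, divided among transcripts where they fit several) in replicate 1 and 317.62 in replicate 2. That was 4.82 CPM (counts in 1000000 counts on Ensembl genes) in replicate 1, with an exact 95% binomial interval (Clopper-Pearson) of 4.19 to 5.52, and 6.72 CPM in replicate 2, with an interval of 6.01 to 7.51. Counts were seen for 27 members, for 21 of them in both libraries and for 6 in only 1 library. The other 12 had none in either library, which is 30.8% of the Hox genes, against 20.7% of protein-coding genes. A count of 0 allows up to 3 expected counts, a level of up to 0.0299 to 0.0765 TPM in replicate 1 and up to 0.0277 to 0.0708 TPM in replicate 2 for these 12 genes. Only 9 members, or 23.1%, averaged 10 expected counts or more, as 66.3% of protein-coding genes did. Intervals and limits cover counting error only. The sources name no molecular identifiers, so copies of a molecule cannot be told from separate molecules, which the intervals do not cover.

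**Figure D1:**
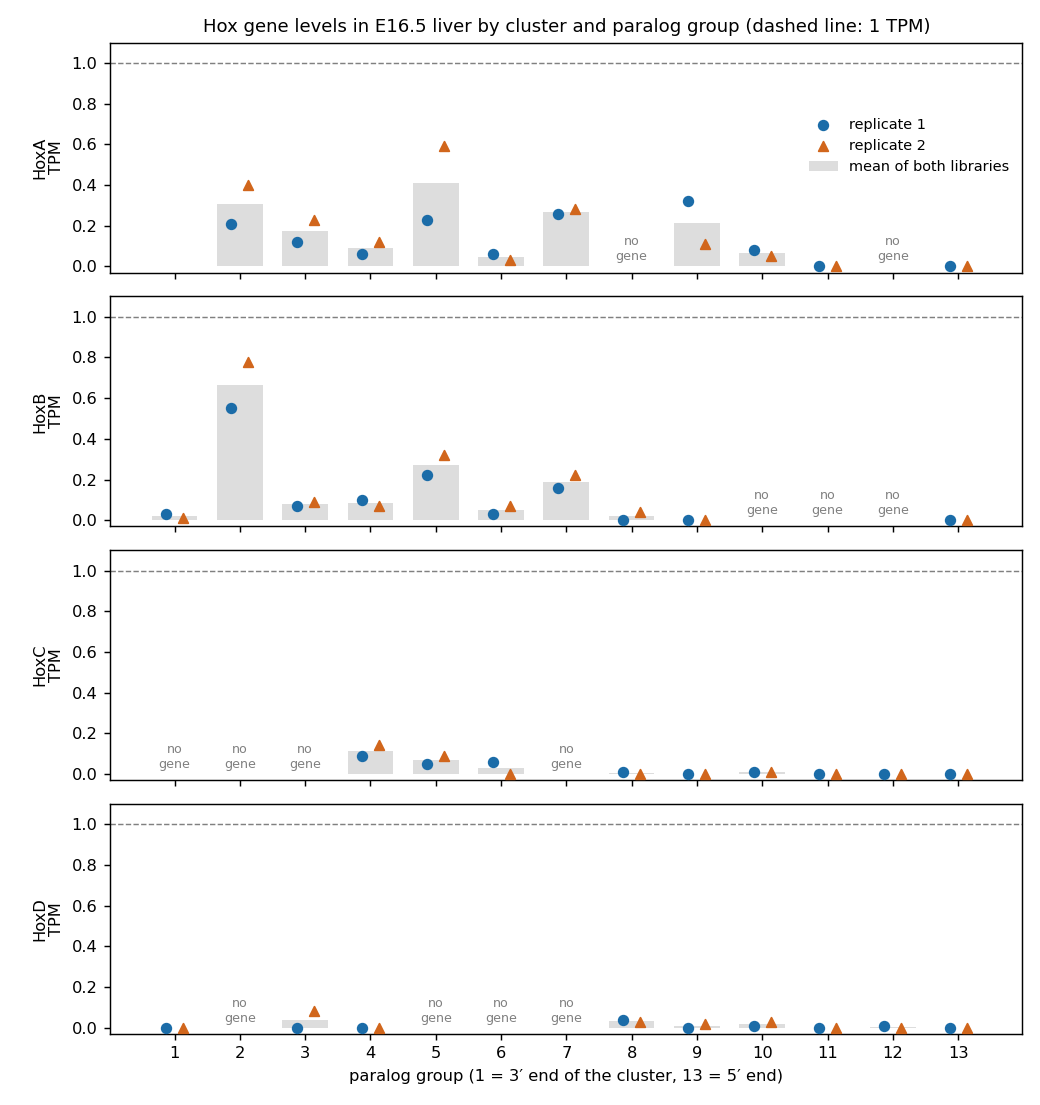
Level of 38 Hox genes in TPM (vertical axis, linear) by paralog group from 1 at the 3′ end to 13 at the 5′ end (horizontal axis), in a row of its own for each cluster. Circles are replicate 1, triangles are replicate 2 and grey bars are the mean of both. Every point lies under the dashed line at 1 TPM, and the taller bars stand in HoxA groups 2 to 9 and HoxB groups 2 to 7.

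A few genes carried most of this RNA. The 8 highest members held 72.0% of the summed Hox TPM in replicate 1 and 72.1% in replicate 2. The 12 highest, all of them in HoxA or HoxB except Hoxc4, held 84.5% and 86.2% in replicates 1 and 2. The remaining 27 members each had a mean of at most 0.08 TPM and together held 15.5% of the summed TPM in replicate 1 and 13.8% in replicate 2.

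The first 250 bases upstream of 4 HoxA start sites are printed here because they set promoters of 2 detected members, Hoxa2 and Hoxa5, beside those of 2 members from the same cluster with no counts, Hoxa11 and Hoxa13. The sequences are RefSeq's on GRCm38.p6, 5′ to 3′ on the minus strand, from which HoxA is transcribed, and capitals mark each CG pair. The Hoxa2 window, chr6:52164832-52165081, lies in an intron of the same-strand gene Gm28308, the Hoxa5 window, chr6:52204588-52204837, lies in introns of Hoxa3, Gm28308 and the antisense gene Hoxaas3, the Hoxa11 window, chr6:52245811-52246060, overlaps exons of the opposite-strand genes Hoxa11os and Gm28032, and the Hoxa13 window, chr6:52260881-52261130, overlaps no annotated gene.
Hoxa2: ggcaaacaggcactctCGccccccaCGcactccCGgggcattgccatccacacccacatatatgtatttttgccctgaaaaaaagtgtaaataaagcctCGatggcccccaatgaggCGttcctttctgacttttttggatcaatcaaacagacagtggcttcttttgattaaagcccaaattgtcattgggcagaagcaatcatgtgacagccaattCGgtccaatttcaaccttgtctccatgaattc
Hoxa5: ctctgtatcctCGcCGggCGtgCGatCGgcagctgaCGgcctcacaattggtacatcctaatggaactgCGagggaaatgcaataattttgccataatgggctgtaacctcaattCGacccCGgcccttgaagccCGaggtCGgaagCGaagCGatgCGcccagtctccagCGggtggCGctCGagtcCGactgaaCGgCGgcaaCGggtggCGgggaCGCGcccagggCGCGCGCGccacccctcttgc
Hoxa11: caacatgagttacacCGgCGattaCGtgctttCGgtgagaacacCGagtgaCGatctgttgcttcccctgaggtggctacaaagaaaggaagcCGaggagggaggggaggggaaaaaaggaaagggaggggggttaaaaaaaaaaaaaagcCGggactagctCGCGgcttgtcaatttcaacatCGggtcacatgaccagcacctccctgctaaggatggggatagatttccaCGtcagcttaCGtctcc
Hoxa13: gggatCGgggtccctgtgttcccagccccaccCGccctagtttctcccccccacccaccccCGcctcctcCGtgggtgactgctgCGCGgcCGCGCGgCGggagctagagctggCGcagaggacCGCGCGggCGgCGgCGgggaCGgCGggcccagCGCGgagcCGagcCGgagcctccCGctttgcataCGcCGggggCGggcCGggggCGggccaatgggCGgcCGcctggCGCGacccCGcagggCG
The windows hold 6 CG pairs at Hoxa2, 28 at Hoxa5, 13 at Hoxa11 and 35 at Hoxa13. The CG-rich and the CG-poorer windows of this set each include a detected and an undetected gene.

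RefSeq promoters matched 22 of the 39 symbols, with 24 windows in all. Hoxa10 and Hoxd11 had 2 windows each, and the leading members Hoxb2, Hoxb5 and Hoxb7 had none. The bases after the start were found in an annotated transcript of the gene for 20 of the 24. The median of the 24 windows was 12.5 CG pairs, with a range of 2 to 35, against a median of 6 over 32851 windows of the same length. Their median G and C content was 58.6%, against 52.4%. The 17 windows of members with counts had a median of 12 CG pairs, from 3 to 28, and the 7 windows of members without counts had a median of 20, from 2 to 35. Both ranges overlap along most of their length. The members with counts include Hoxb8 and Hoxd12, which had 1 expected count in 1 library. The letters TGATNNAT, a core that Hox and PBX proteins bind together, were found on either strand in 4 of the 24 windows (16.7%, against 7.68% of all windows), the Hoxa2 window among them. CCAAT, the letters read by the factor NF-Y, were in 14 windows (58.3%, against 33.8%), and TATAAA, the TATA box core, in 4 (16.7%, against 12.4%). These are matches of letters in the windows and not measured binding.

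HoxA, on the minus strand of chromosome 6 (GRCm38, 105 kb), held the largest share of Hox RNA in both libraries. Its 11 members summed to 1.52 TPM in replicate 1 and 1.98 TPM in replicate 2, or 50.6% ± 1.13 of the Hox total (SD, n = 2). Of the 11, 9 had counts in both libraries, and the 2 nearest the 5′ end, Hoxa11 and Hoxa13, had none.

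Toward the 3′ end of HoxA, Hoxa2, which sets the identity of the second pharyngeal arch, had 0.21 and 0.40 TPM in replicates 1 and 2. Hoxa3, needed for thymus and parathyroid formation, had 0.12 and 0.23 TPM in replicates 1 and 2. Both were higher in replicate 2 than in replicate 1.

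In the middle of HoxA, Hoxa5 (ENSMUSG00000038253, chr6:52201754-52204587), which is needed for lung and airway development, averaged the second highest level of all members. It had 0.23 TPM in replicate 1 and 0.59 TPM in replicate 2, from 17 and 48 expected counts. Its neighbour Hoxa4 had 0.06 and 0.12 TPM and Hoxa6, the lowest detected member of the cluster, 0.06 and 0.03 TPM in replicates 1 and 2. Hoxa7, studied in blood progenitors as a target of MLL, the product of Kmt2a, had 0.26 and 0.28 TPM in replicates 1 and 2, almost the same level from 17 and 18 counts.

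Of the posterior groups 9 to 13, HoxA held the members with more than a few counts. Hoxa9, a regulator of blood stem cell expansion, had 0.32 TPM in replicate 1 and 0.11 TPM in replicate 2, from 20 and 12 expected counts. Of the 0.32 TPM in replicate 1, 0.11 TPM lay on a short noncoding form with 1.74 expected counts. Hoxa10, which is active in early myeloid progenitors, had 0.08 and 0.05 TPM in replicates 1 and 2, from 5 counts in each. No read was assigned to Hoxa11, a gene of the forearm and the uterus, or to Hoxa13, a gene of the digits and the hindgut.

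HoxB, on the plus strand of chromosome 11 from 96194316 to 96368256 (174 kb), summed to 1.16 TPM in replicate 1 and 1.60 TPM in replicate 2 over its 10 members. Its share was 39.7% ± 0.715 of the Hox total (SD, n = 2), and the order HoxA above HoxB was the same in each library. The shares by expected counts were 36.7% (exact 95% binomial interval 30.3 to 43.8) in replicate 1 and 37.3% (31.8 to 42.7) in replicate 2, against 51.4% (44.2 to 58.2) and 51.4% (45.6 to 56.9) for HoxA.

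Hoxb2 (ENSMUSG00000075588, chr11:96350525-96354012), a gene of hindbrain and facial motor neuron development, led all 39 members in both libraries. It had 0.55 TPM in replicate 1 and 0.78 TPM in replicate 2, from 37.76 and 62.32 expected counts, and 43.8% of protein-coding genes had a lower mean level. Hoxb5, known as a marker of long-lived blood stem cells, had 0.22 and 0.32 TPM and Hoxb7 0.16 and 0.22 TPM in replicates 1 and 2. Hoxb4, known for expanding blood stem cells when overexpressed, had only 0.10 and 0.07 TPM in replicates 1 and 2, from 10 and 8 counts. The remaining HoxB members lay at or under 0.09 TPM in each library. Hoxb9 and Hoxb13, at the 5′ end, had no counts.

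HoxC, on the plus strand of chromosome 15 from 102921103 to 103036852 (116 kb), has no genes of groups 1 to 3 and contributed little. Its 9 members summed to 0.22 TPM in replicate 1 and 0.24 TPM in replicate 2, or 6.73% ± 0.992 of the Hox total (SD, n = 2), and 10.5% with the authors' posterior mean TPM. Hoxc4, its 3′ gene and its highest, known from lymphoid cells, had 0.09 and 0.14 TPM in replicates 1 and 2, from 7 and 12 counts. Next in gene order, Hoxc5 had 0.05 and 0.09 TPM and Hoxc6 had 0.06 and 0 TPM in replicates 1 and 2, levels that rest on 11 counts or fewer each. Hoxc8 and Hoxc10 had at most 1 count in a library, and Hoxc9, Hoxc11, Hoxc12 and Hoxc13 had none.

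HoxD, on the plus strand of chromosome 2 from 74668310 to 74765142 (96.8 kb), was the lowest cluster in both libraries. It took 6 expected counts in replicate 1 and 12 in replicate 2 and held 3.02% ± 1.41 of the Hox TPM (SD, n = 2), or 8.33% with the authors' posterior mean TPM. Its highest member by mean level, Hoxd3, had 0 and 0.08 TPM in replicates 1 and 2, all from 4 counts in replicate 2. Hoxd8 was the member with the most counts, 4 in each library, at 0.04 and 0.03 TPM in replicates 1 and 2. Hoxd1, Hoxd4, Hoxd11 and Hoxd13 had none. With so few counts an order among the HoxD genes cannot be read.

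Pooled over the clusters, RNA of the groups 9 to 13 was the scarcest. The 8 members of groups 1 to 3 held 41.7% ± 3.56 of the Hox TPM, the 15 members of groups 4 to 8 held 48.3% ± 2.81 and the 16 members of groups 9 to 13 held 10.0% ± 6.36 (SD, n = 2 each). The posterior share was 14.5% in replicate 1 and 5.53% in replicate 2, so it was the smallest in each library but differed widely between them. It was 18.1% with the authors' posterior mean TPM, a second deposited estimate of the same quantity, and 6.30% over protein-coding transcripts only. Of 28 posterior counts in replicate 1 and 22 in replicate 2, 25 and 17 belonged to Hoxa9 and Hoxa10. The 9 members of groups 11 to 13 had a single expected count among them, at Hoxd12 in replicate 1, and the other 8 were at 0 in both libraries. HoxD on its own did not show the posterior groups as lowest. Its groups 1 to 3, 4 to 8 and 9 to 13 summed to means of 0.04, 0.035 and 0.035 TPM, from few counts.

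Across the members of a cluster, the rank correlation of paralog number and mean TPM was −0.88 in HoxC (9 genes), −0.57 in HoxA (11 genes), −0.55 in HoxB (10 genes) and −0.23 in HoxD (9 genes). In HoxC it was −0.88 in replicate 1 but −0.63 in replicate 2, with 4 of the 9 genes tied at 0 in both libraries. In HoxB it was −0.62 and −0.51 in replicates 1 and 2. In HoxD it was 0.21 in replicate 1 and −0.33 in replicate 2, so its sign depended on the library. Which cluster had the strongest correlation also depended on the library. In HoxA it was −0.37 in replicate 1 and −0.71 in replicate 2, where Hoxa9 was lower in TPM, though its Poisson intervals in CPM overlapped. These values describe genes that share libraries and, within a cluster, neighbourhood and strand, and so are not independent points.

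The same paralog number did not bring the same level. In group 5, Hoxa5 averaged 0.41 ± 0.255 TPM, Hoxb5 0.27 ± 0.0707 TPM and Hoxc5 0.07 ± 0.0283 TPM (SD, n = 2 each). The Hoxc5 values lay under both others in each library, whereas those of Hoxa5 and Hoxb5 overlapped. In group 9, Hoxa9 averaged 0.215 ± 0.148 TPM, Hoxd9 had 0 and 0.02 TPM in replicates 1 and 2, from 2 counts in replicate 2, and Hoxb9 and Hoxc9 were at 0 in both libraries. In group 4, Hoxa4, Hoxb4 and Hoxc4 overlapped, between 0.06 and 0.14 TPM, while Hoxd4 had no counts. Group 2, made of Hoxa2 and Hoxb2 alone, was the highest group in both libraries, with 0.76 TPM in replicate 1 and 1.18 TPM in replicate 2.

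By mean level the order of the leading members was Hoxb2, Hoxa5, Hoxa2, Hoxa7 and Hoxb5 at the same mean, Hoxa9, Hoxb7 and Hoxa3. Hoxb2 was first in each library, although its range of 0.55 to 0.78 TPM touched that of Hoxa5, 0.23 to 0.59 TPM. Behind it the order was not the same in both libraries. Hoxa9 came second in replicate 1 but stood under Hoxc4 and Hoxa4 in replicate 2, and Hoxa5 came second in replicate 2 but behind Hoxa9 and Hoxa7 in replicate 1. The ranks of Hoxa9 rest on 20 and 12 expected counts in replicates 1 and 2. From Hoxa5 to Hoxa3, the values of every pair of neighbours in this order overlapped.

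**Figure D2:**
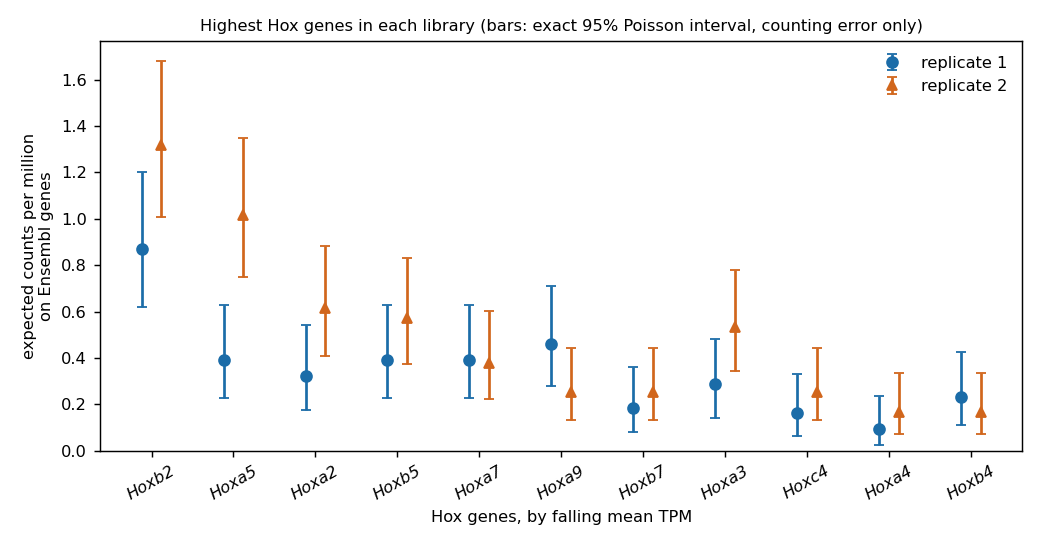
Expected counts as CPM on Ensembl genes (vertical axis) for 11 of the 12 highest Hox genes, ordered by falling mean TPM (horizontal axis). Circles are replicate 1, triangles are replicate 2, and bars are exact 95% Poisson intervals that cover counting error only. The values are not divided by gene length and serve to compare libraries within a gene, and only the intervals of Hoxa5 stand apart.

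The libraries differed somewhat in Hox level, and Hoxa5 was the member with the widest gap in absolute terms. As a ratio of TPM, Hoxa9, with 0.32 and 0.11 TPM in replicates 1 and 2, moved at least as much, in the other direction. In CPM, Hoxa5 had 0.392 (exact 95% Poisson interval 0.228 to 0.628) in replicate 1 and 1.02 (0.749 to 1.35) in replicate 2. It was the only one of the 9 members averaging at least 10 expected counts whose intervals stood apart, while 28.4% of 16258 genes under the same filter did. Those genes reach far higher counts, at which intervals are narrower, so that share is not matched to the Hox genes in count. No member passed a 2-fold difference on the log2(TPM + 1) scale, on which low genes move little, and 0.597% of the 16258 genes did. With 0.78 TPM as the highest Hox value, none could pass it, so this says nothing about agreement between the libraries. On that scale the centred log2 ratio of replicate 1 over replicate 2 ran from −0.35 for Hoxa5 to 0.27 for Hoxa9, with a median of −0.10 over the 9 members. In CPM, 3 of the 9, Hoxa7 and Hoxa9 among them, were higher in replicate 1 and 6 in replicate 2, and the split was also 3 and 6 when counts were set against spike-in counts. With 1 library against 1 there is no test of these differences.

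The size of the difference in total Hox RNA depended on what it was set against. In CPM, replicate 1 held 0.718 times the Hox counts of replicate 2, and 0.777 times without Hoxa5. Set against 1000000 spike-in counts, replicate 1 held 188 Hox counts (163 to 215) and replicate 2 held 204 (182 to 228), a ratio of 0.921 with intervals that overlap. Markers of other tissues also differed between the libraries. The 5 pancreas markers summed to 13.99 TPM in replicate 1 and 45.4 TPM in replicate 2, with Ins2, the insulin gene, at 0.90 and 18.87 TPM. The 5 muscle and body wall markers summed to 81.5 and 192 TPM, with Acta1, the actin of skeletal muscle, at 76 and 181.85 TPM in replicates 1 and 2. The 6 stomach and intestine markers summed to 8.10 and 16.6 TPM, and the 4 bile duct markers to 21.7 and 37.0 TPM, in replicates 1 and 2. The 3 lung markers summed to 0.61 and 0.50 TPM, with the lung regulator Nkx2-1 at 0, and the 5 kidney and urogenital markers to 0.05 and 0.36 TPM, nearly all of it from Pax8 and with Pax2, Umod and Foxd1 at 0, in replicates 1 and 2. The 8 stellate and mesenchymal markers summed to 229 and 279 TPM, and the 8 stem and progenitor markers to 34.6 and 38.0 TPM, in replicates 1 and 2. Tissue cut out with the liver and connective tissue cells can carry Hox RNA of their own, and the part of these cells in the Hox levels or in the difference between the libraries was not tested.

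**Figure D3:**
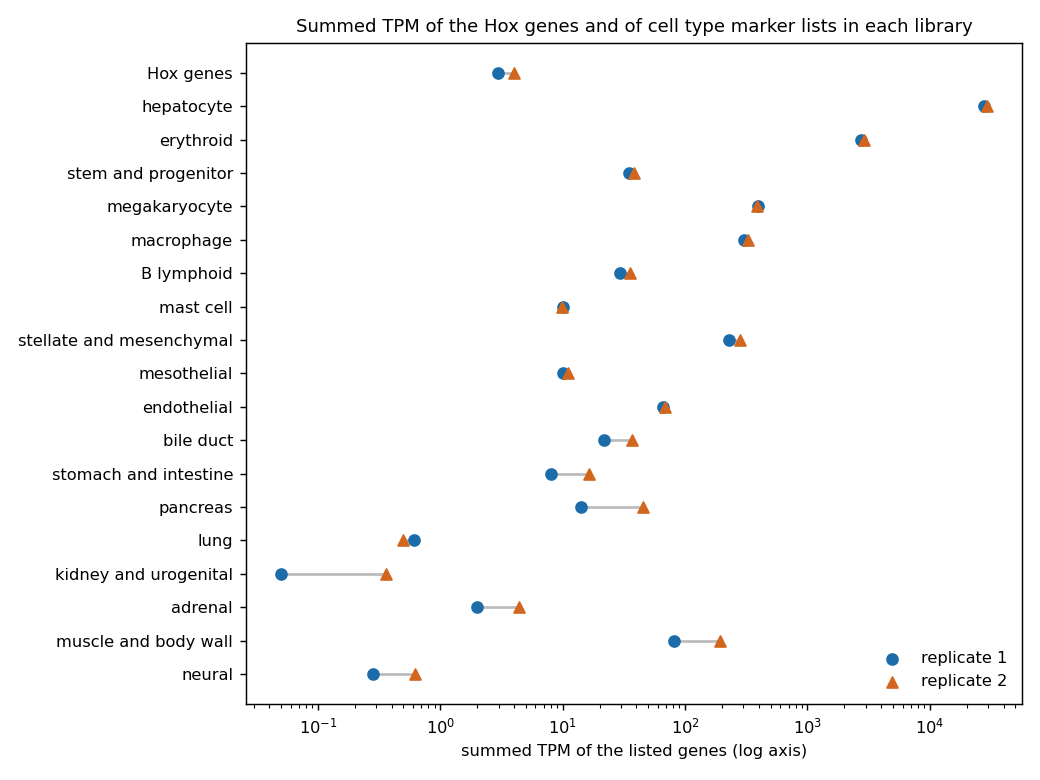
Summed TPM (horizontal axis, log) of the 39 Hox genes and of 18 cell type marker lists (rows). Circles are replicate 1, triangles are replicate 2 and grey lines join them. The hepatocyte and erythroid lists lie nearly level at the right. All lists but megakaryocyte, mast cell and lung are higher in replicate 2, as is the Hox sum. The gap is widest in the pancreas, muscle, intestine, adrenal, kidney and neural lists.

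The transcript tables held 87 transcripts of the 39 genes, 63 of them coding, and 47 had counts. For Hoxb2 the same coding transcript of 1628 nt held 92.7% of the gene's TPM in replicate 1 and 85.9% in replicate 2, the rest being a form with a retained intron. Hoxa5 and Hoxa2 have a single annotated transcript, and in Hoxb5 and Hoxb7 1 coding transcript held at least 96.9% in each library. Hoxa7 was different, with 64.0% and 55.2% of its TPM in replicates 1 and 2 on a form of 2031 nt annotated as a target of nonsense-mediated decay. For Hoxa9 the leading form was not the same in the libraries, a noncoding form of 462 nt with 34.4% in replicate 1 and the coding form of 3226 nt with 66.7% in replicate 2. The short Hoxa9 form rests on 1.74 expected counts in replicate 1 and none in replicate 2, and coding Hoxa9 alone had 12.97 and 11.02 expected counts in replicates 1 and 2. Likewise most of the Hoxb3 level, 0.07 and 0.06 TPM in replicates 1 and 2, came from 1 count in each library on a noncoding form of 446 nt.

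Exons of 10 members overlap exons of a gene on the opposite strand, and 8 of the 10 had counts, among them Hoxb2, which overlaps Hoxb3os, and Hoxb5, which overlaps Hoxb5os. Nothing in the labels gives a strand-specific protocol, so where exons overlap the reads of such pairs cannot be told apart. On the same strand, exons of 9 members overlap those of another gene, Hoxd3 with Hoxd4 and Hoxc5 with Hoxc10 among them. Counts of such members depend on how reads in shared exons were divided.

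Other genes inside the clusters took 73.48 and 89.97 expected counts in all in replicates 1 and 2. The annotation places 45 of them between the first and last members, and 13 had counts, 7 in HoxA, 4 in HoxB, 2 in HoxD and none in HoxC. Many of the 45 are microRNA or other short RNA genes, with effective lengths down to 0 nt. Such genes could take few or no counts in libraries of RNA above 200 nt. In HoxC all but Hotair are of this kind, so the lack of counts there says little. The share of all Ensembl genes with counts was not computed, so 13 of 45 is not read as low. The only one of the 45 at 1 TPM or more in both libraries was Hotairm1, an antisense RNA of HoxA that is known from myeloid cells in human. It had 2.31 TPM in replicate 1 and 1.75 TPM in replicate 2. That level rests on 23.43 and 15 expected counts over a short effective length of 240 and 188 nt. Next by mean came the pseudogene Gm11539 with 0.35 and 0.84 TPM and Gm27477 with 1.08 and 0 TPM in replicates 1 and 2. They were followed by the antisense RNA Gm15050 with 0.37 and 0.24 TPM, and by Gm27867 with 0.52 and 0 TPM and the antisense RNA Hoxaas3 with 0.15 and 0.37 TPM, which share a mean. Gm27477 and Gm27867 had 2 counts or fewer each on an effective length of 44 nt or less.

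The clusters also hold microRNA genes, whose mature sequences are shown because they form families that run through the clusters with shared seeds, the bases 2 to 8 that pair with targets. The sequences are RefSeq's on GRCm38.p6, with the seed in capitals.
mmu-miR-10a-5p: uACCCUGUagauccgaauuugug
mmu-miR-10b-5p: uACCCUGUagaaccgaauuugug
mmu-miR-196a-5p: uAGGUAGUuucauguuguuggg
mmu-miR-196b-5p: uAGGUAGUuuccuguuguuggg
The miR-10 pair, from HoxB (chr11:96317186-96317208, plus strand) and HoxD (chr2:74726074-74726096, plus strand), shares the seed ACCCUGU. The miR-196 pair, from HoxB (chr11:96265187-96265208, plus strand), HoxC (chr15:102973365-102973386, plus strand) and HoxA (chr6:52230129-52230150, minus strand), shares the seed AGGUAGU, and miR-196 is known to target Hoxb8 RNA. All 6 microRNA hairpins of the clusters had 0 counts, but their rows had an effective length of at most 11 nt and the libraries were made of RNA above 200 nt, so their levels were not measurable here.

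Outside the clusters, most of the nearest coding genes had levels far above those of the Hox genes. Of the 16 nearest protein-coding genes, 2 on each side of each cluster, 11 reached 1 TPM in each library, with means of 4.42 to 88.9 TPM. The median of the 16 was 11.2 TPM, against 0.03 TPM for the Hox genes. Beside HoxD, Mtx2, a mitochondrial import protein 60661 bp from the cluster, had 45.7 and 41.53 TPM, and Lnpk, a protein of the endoplasmic reticulum, had 16.29 and 12.77 TPM in replicates 1 and 2. Beside HoxA, Skap2, a signalling adaptor of blood cells, had 16.58 and 15.19 TPM, and Hibadh, an enzyme of valine breakdown, 71.34 and 72.27 TPM in replicates 1 and 2. Hnrnpa3, an RNA-binding protein beyond Mtx2, had 94.12 and 83.61 TPM in replicates 1 and 2. Snx10, a sorting protein beyond Skap2, had 7.9 and 7.98 TPM in replicates 1 and 2.

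The homeobox genes next to the 5′ ends, Evx1 beside HoxA and Evx2 beside HoxD, regulators of spinal cord and limb, had no counts. Neither had 20.7% of all protein-coding genes. Around HoxB, Skap1, a T cell adaptor, had 0.34 and 0.10 TPM, and Ttll6 and Calcoco2 at most 1 count in a library, so that only Snx11, with 6.29 and 6.72 TPM in replicates 1 and 2, passed 1 TPM. Around HoxC, all of Calcoco1 (15.5 and 15.52 TPM), Atp5g2 (75.32 and 79.06 TPM), Smug1 (4.28 and 4.56 TPM) and Cbx5 (41.24 and 36.16 TPM in replicates 1 and 2) passed it.

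**Figure D4:**
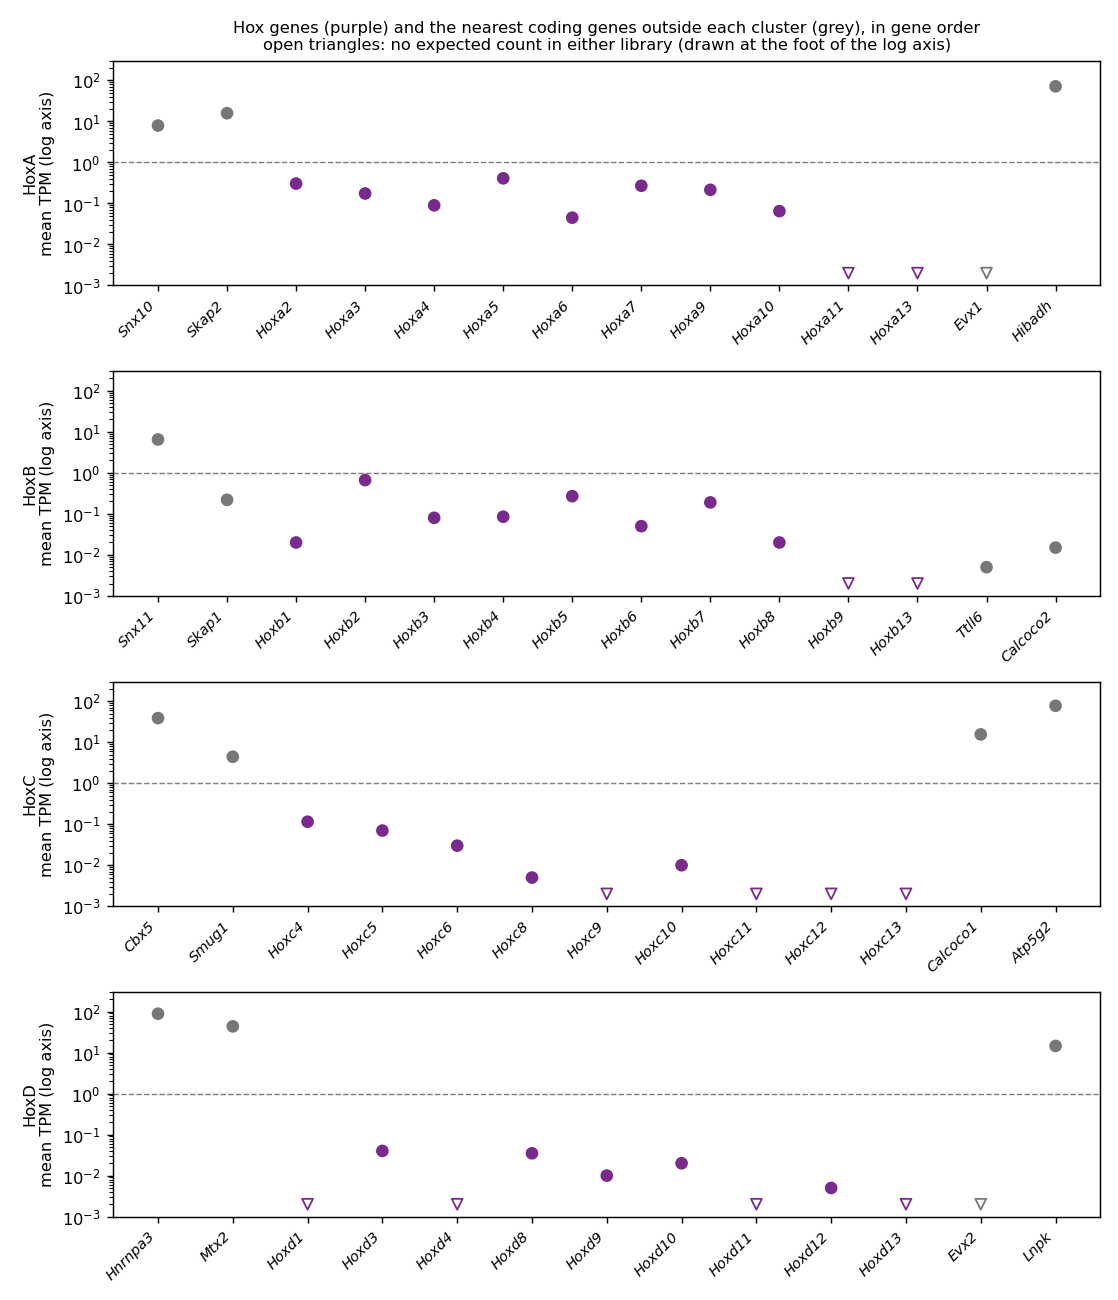
Mean TPM of both libraries (vertical axis, log) for 38 Hox genes (purple) and the 2 nearest protein-coding genes on each side (grey), in gene order along each cluster (horizontal axis, not to scale). Open triangles at the foot mark genes with no count in either library. The Hox genes lie under the dashed line at 1 TPM, and 11 of the 16 neighbours lie above it.

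The partners and regulators of Hox genes were detected at 1 TPM or more for the most part. Of 11 TALE genes, 8 reached 1 TPM in each library, and the median of the list was 2.46 ± 0.424 TPM (SD, n = 2). Pknox1 had 8.09 and 8.04 TPM, Tgif1, a repressor of the TALE class, 7.87 and 7.79 TPM, and Meis1, the Hox partner of blood stem cells, 7.04 and 7.42 TPM in replicates 1 and 2. The lowest TALE gene was Pknox2, at 0.36 and 0.43 TPM in replicates 1 and 2. Meis1 alone thus had a higher TPM in each library than the 39 Hox genes summed.

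All 18 MLL and trithorax genes reached 1 TPM in each library, and their median was 13.8 ± 2.22 TPM (SD, n = 2). Mllt3, Dpy30 and Psip1, a reader, a core subunit and a chromatin tether of these complexes, averaged 75.7, 72.3 and 32.7 TPM. The lowest was Kmt2a, the methyltransferase that maintains Hox expression, with 1.59 and 1.64 TPM in replicates 1 and 2. All 30 Polycomb genes reached 1 TPM in each library too, and their median was 5.05 ± 0.127 TPM. The histone chaperones Rbbp7 and Rbbp4, shared with other complexes, averaged 311 and 198 TPM, Ezh2, the methyltransferase of Polycomb, had 36.59 and 31.33 TPM, and Cbx7, a reader of its mark, was lowest at 1.05 and 1.01 TPM in replicates 1 and 2. Genes for CTCF and cohesin, which fold the clusters, reached 1 TPM in 8 of 8 cases, with a median of 25.9 ± 2.03 TPM, from Ctcf (51.55 and 48.78 TPM) to Nipbl (5.7 and 5.64 TPM in replicates 1 and 2). The cohesin subunits Smc1a and Rad21 followed Ctcf, with means of 42.8 and 28.1 TPM. RNA levels of these genes do not measure the activity of their complexes at the clusters.

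Genes of retinoic acid signalling, which activates 3′ Hox genes in the embryo, were lower, with 6 of 15 reaching 1 TPM in each library and a list median of 0.895 ± 0.290 TPM (SD, n = 2). Its nuclear receptors led, with Rxrb at 12.64 and 13.67 TPM, Rxra at 4.34 and 4.84 TPM and Rara at 3.69 and 4.71 TPM in replicates 1 and 2. Cyp26c1, an enzyme that degrades retinoic acid, was at 0.

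Among homeobox genes, those related to Hox by origin or place also lay under 1 TPM, and most of those known from the liver did not. Of 14 ParaHox and Hox-linked homeobox genes, none reached 1 TPM and 7 had no counts. Meox1, a gene of somites, was highest, at 0.44 and 0.41 TPM, followed by Cdx1, a gene of the gut and of Hox activation, at 0 and 0.31 TPM and Dlx4 at 0.06 and 0.12 TPM in replicates 1 and 2. Of 12 homeobox genes chosen for the liver, 9 reached 1 TPM in each library, and the list median was 4.29 ± 0.544 TPM. Hhex, needed for the liver bud, had 30.07 and 29.24 TPM, Cux1 13.92 and 14.92 TPM, Zeb2 9.65 and 9.4 TPM, and Zhx2, a repressor of Afp in adult liver, the lowest, 0.58 and 0.83 TPM in replicates 1 and 2.

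Of 16 stem and progenitor genes of the blood, 14 reached 1 TPM in each library, and the list median was 5.57 ± 0.697 TPM (SD, n = 2). Lyl1, a regulator of progenitors, had 38.53 and 39.77 TPM, Spi1, the regulator of myeloid fate, 14.66 and 15.94 TPM, and Kit, the stem cell factor receptor, 12.88 and 12.57 TPM in replicates 1 and 2. Mecom, a gene of long-lived stem cells, was lowest, with 0.87 and 0.89 TPM, which is still above every Hox gene in the same library. Which cells of the liver held the Hox RNA was not measured.

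**Figure D5:**
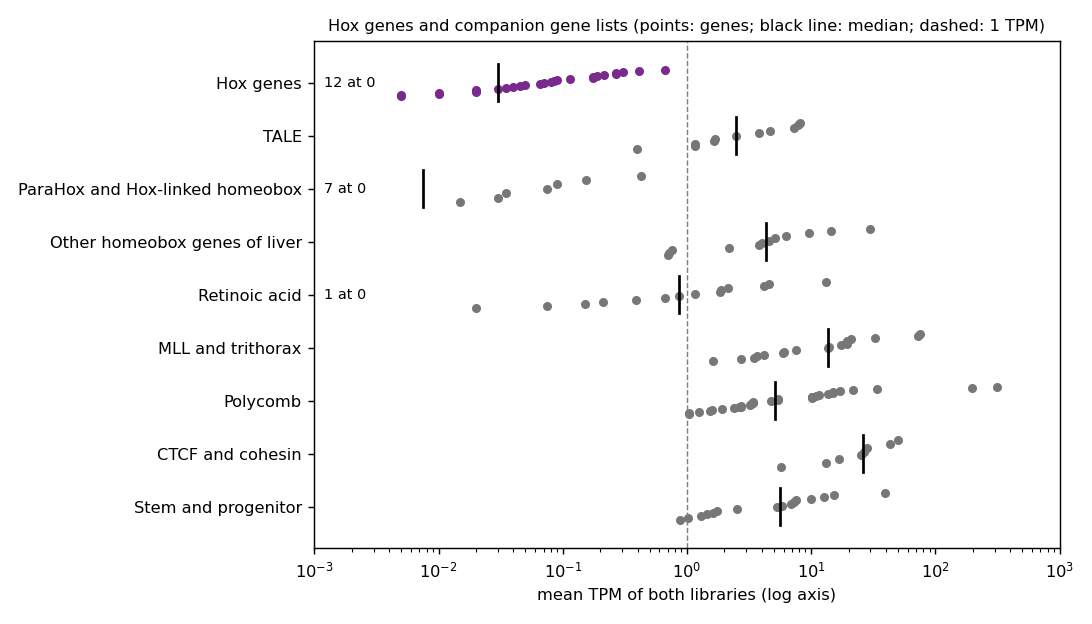
Mean TPM of both libraries (horizontal axis, log) for the Hox genes (purple) and for each gene of 8 companion lists (grey), with a black line at the median of each list and the dashed line at 1 TPM. Genes with no counts are given as a number at the left. The Hox and the ParaHox and Hox-linked lists lie wholly under 1 TPM, and the MLL and trithorax, Polycomb, and CTCF and cohesin lists wholly above it.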

How the data were processed

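The members and the gene lists were chosen with earlier results of these data known. The authors deposited 1 gene table and 1 transcript table per library, made on mm10 with GENCODE M4 per the notes that accompany the tables. Column names follow RSEM. No version of it and no aligner is given in the sources used here. The deposited expected counts are estimated counts, and 2 members, Hoxa3 and Hoxb2, had counts more than 0.01 from a whole number. The deposited TPM values and the authors' posterior mean TPM are relative to all rows of a table. The deposited FPKM values, the deposited percent columns for transcript shares and the deposited TPM interval bounds, which were read as signal values, entered no result. No column of another series was present (0).

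Symbols, biotypes, coordinates and overlaps came from GENCODE M21 (GRCm38), matched by identifier without version, and all 39 members matched. Levels were taken as the mean and SD of 2 libraries, which measure only the spread between these pools. Poisson and Clopper-Pearson intervals (95%) used expected counts rounded to whole numbers. The log2 ratio, replicate 1 over replicate 2 with a pseudocount of 1 TPM, had its median over genes averaging at least 100 expected counts (−0.02) subtracted, and this step was tested on simulated data. A fold cut of 2 and a minimum mean count of 10 applied. No test between conditions is possible with 1 group, and 1 library against 1 gives no p-value.

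Named were the 12 members with the highest mean TPM, the highest of each cluster, members without counts, the 3 highest and the lowest gene of each companion list, the 5 highest other genes (6 with a tie) inside the clusters and the 2 nearest coding genes on each side. Values of 1 member are not reported here, though totals and counts include it. Other members and marker genes were named after their values were seen. Alternatives comprised posterior mean TPM, CPM, coding transcripts, rescaled TPM, other thresholds and pseudocounts, TMM factors (edgeR 4.0.16), size factors (DESeq2 1.42.0, R 4.3.3), spike-in scaling and leaving out a replicate. The remaining work was done in python 3.11.15 (pandas 2.3.3, scipy 1.17.1, numpy 2.4.6, matplotlib 3.10.9).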

Additional observations from a re-analysis of the deposited data

How the results depend on the processing

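Depth limits these results, as 30 of the 39 Hox genes had a mean expected count under 10. Of 68 alternative values, 44 kept the result and 24 moved it. A level or share was called moved when it changed by at least the SD of the 2 libraries. A count was called moved when it left 0 or changed past a fixed factor. The SD of the median was 0, so any change of the median was called a move. The summed Hox TPM of 3.47 became 5.35 with the posterior mean TPM, 5.77 with CPM and 6.65 when rescaled over protein-coding nuclear genes other than globins. The median of 0.03 became 0.085, 0.0327 and 0.0575 under the same settings, and 0.02 with coding transcripts only. CPM is not divided by length, so its sum and median are in another unit than TPM. The HoxA share of 50.6% became 47.8% with the posterior mean TPM and 47.5% with coding transcripts. The HoxB share of 39.7% became 33.4% with the posterior mean TPM, 37.0% with CPM and 41.2% with coding transcripts, and the HoxC share of 6.73% became 10.5%, 8.32% and 7.98%. With the posterior mean TPM, HoxD held 8.33%, groups 1 to 3 held 35.9% and groups 9 to 13 held 18.1%, and groups 9 to 13 held 6.30% with coding transcripts. The order of the 4 clusters did not change. The cause of these shifts was not tested. The count of 0 members at 1 TPM became 1 (Hoxb2) with rescaled TPM, 9 at 0.1 TPM, 1 at 0.5 TPM and 8 with a threshold of 10 expected counts. The count of 0 members past 2-fold became 2 (Hoxa5 and Hoxa9) with a pseudocount of 0.1 and 1 (Hoxa5, at −1.30) with DESeq2 size factors on counts. Under the main setting no member could pass at such low TPM, so other count filters could not move that count. Centring on the spike-ins shifts every log2(TPM + 1) ratio by the same amount, since their median was −0.38 against −0.02 for genes, so signs of these shrunken ratios are not read under it. Set against spike-in counts, 3 of 9 members were higher in replicate 1 and 6 in replicate 2, and the Hox total was 0.921 times that of replicate 2. Totals against spike-in counts and totals without Hoxa5 were added after seeing the data. With either replicate left out, the sum was 2.96 to 3.98 TPM, the median 0.03 TPM, HoxA 49.7 to 51.4%, HoxB 39.2 to 40.2%, HoxC 6.03 to 7.43% and HoxD 2.03 to 4.02%. Groups 1 to 3 held 39.2 to 44.2%, groups 4 to 8 46.3 to 50.3% and groups 9 to 13 5.53% (without replicate 1) to 14.5% (without replicate 2). In either library alone 15 members had no counts and 0 reached 1 TPM. No paired analysis was possible because the study has 1 group.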
